A study of Homo sapiens with 6 samples.

Results

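The integrated stress response was followed through 36 genes that encode ATF4, its target genes and the factors that control eIF2, chosen by name from a table of 30676 genes. Of these, 27 belong to the ATF4 side, which comprises ATF4, its partner transcription factors and its target genes, and 9 encode eIF2 kinases or subunits of eIF2 and its exchange factor eIF2B. PPP1R15B, a constitutive phosphatase subunit for eIF2, was also counted on the ATF4 side. All 36 were found in the table, and all 36 passed the filter on low values (a mean of at least 0.5 FPKM over the 6 libraries), as did 13721 genes in all. Levels are given in FPKM, which corrects fragment numbers for gene length and library size. The mean of FGF21 in the GIA group, 0.449 FPKM, lay under that minimum, and it passed through its DMSO values.

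The cells are labelled HCT116, an established human colorectal cancer line, with a wild-type genotype. Every library came from cells kept at 1% oxygen for 24 hours. In 3 libraries the cells received GIA, a genistein isoflavonoid alkaloid, at 10 µM, and in 3 control libraries they received the vehicle DMSO at 0.1%. The comparison asks which transcripts differ with GIA under low oxygen. The labels state a DMSO content for the control libraries alone. No normoxic group is among the samples, so the levels below are hypoxic levels. The labels leave unstated whether the numbered libraries are separate cultures, and the p-values measure the spread between these libraries, which may be technical.

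The integrated stress response begins with kinases that phosphorylate the alpha subunit of the translation factor eIF2. Phosphorylated eIF2 blocks its exchange factor eIF2B, so that general translation slows while the mRNA of ATF4, through upstream reading frames in its leader, is translated better. ATF4 protein, as a dimer with C/EBP factors, then switches on genes of amino acid supply, redox balance and cell fate, including the phosphatase subunit that reverses eIF2 phosphorylation. Severe hypoxia is a known trigger, mainly through the kinase of the endoplasmic reticulum. Because ATF4 is controlled largely at translation, its mRNA level does not report its protein level.

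Library totals were 55725249 to 63542466 estimated counts with DMSO and 64804849 to 67835059 with GIA, so the groups did not overlap in depth. Genes listed at 0 numbered 6585 to 7198 with DMSO and 6068 to 6461 with GIA. Epithelial keratins were abundant in the libraries, with KRT8 at a mean of 146 FPKM and KRT18 at 256, but other defining markers of colon epithelium were close to absent. EPCAM lay between 0.119 and 0.335 FPKM and CDH1, which encodes E-cadherin, between 0.0165 and 0.0490, while CDH17 and VIL1 were listed at 0 in at least 4 of the 6 libraries. The 5 fibroblast markers with a row included lumican (LUM) at 173 FPKM and decorin (DCN) at 12.8, with COL3A1 listed at 0 in 5 libraries. The label of a colorectal epithelial line was therefore not borne out by EPCAM and CDH1, and the samples are called here by their labels. In a bulk library, fewer cells of a type and less RNA per cell cannot be told apart.

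No member passed the test between GIA and DMSO. By edgeR's quasi-likelihood test with Benjamini-Hochberg adjustment over 13721 genes, 0 members were higher and 0 lower, as were 0 (0%) of all genes, and the smallest adjusted p of a member was 0.875. DESeq2 and limma also called 0 members and 0 genes of the whole table. At an unadjusted p under 0.05 there were 3 of 36 members (8.33%) by edgeR, CHAC1 and EIF2S1 on the lower and CREBRF on the higher side, beside 630 of all genes (4.59%). DESeq2 gave 3 members at that level and limma on log2 (FPKM + 0.5) gave 2. The log2 fold change was below 0.1 in size for 27 of the 36. For 35 of 36 members (97.2%) the 95% interval allowed no change beyond 1.5-fold, beside 83.0% of all genes tested, and for all 36 none beyond 2-fold. The 2 sets differ in level, with a median of 16.2 FPKM over the members and 5.22 over all genes tested. Their median SE was 0.051 and 0.075.

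**Figure D1:**
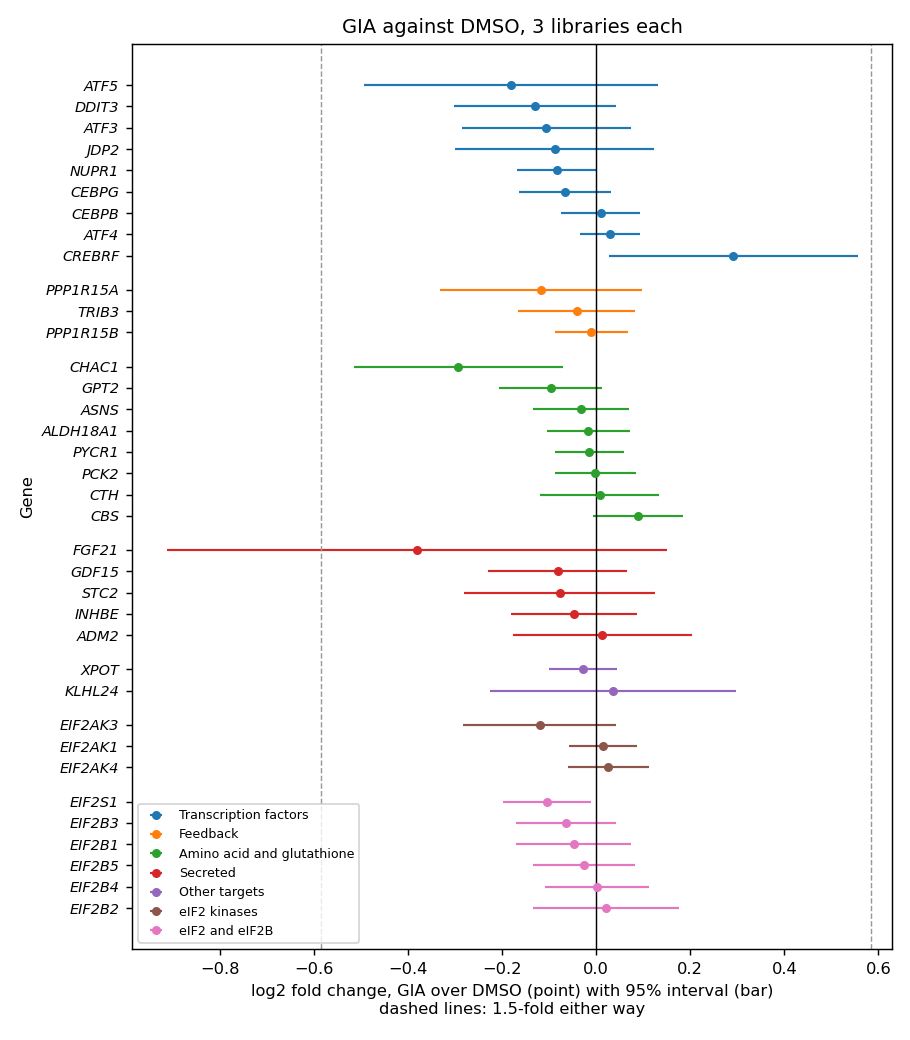
Log2 fold change of each of the 36 genes, GIA over DMSO, with the 95% interval of edgeR's quasi-likelihood fit (n = 3 libraries each), coloured by role. Apart from FGF21, every interval lies between the dashed lines at 1.5-fold.

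Among the transcription factors, ATF4 itself had the highest mRNA level of the 36 genes, at the 98.7th percentile of the genes tested. It had 153, 152 and 152 FPKM with DMSO and 152, 159 and 156 with GIA. The groups overlapped, and the highest value was in GIA library 2. The log2 fold change was 0.03 (SE 0.03, 95% interval -0.03 to 0.09), which bounds a difference to 1.07-fold. The level of CEBPB, a C/EBP partner of ATF4, was next in the group at 101 ± 4.04 FPKM (SD, n = 3) in the controls and 102 ± 1.63 (SD, n = 3) under GIA. DDIT3, the death-associated factor CHOP that ATF4 induces, had 30.7, 25.5 and 30.9 FPKM with DMSO and 26.0, 26.3 and 27.4 with GIA. DMSO library 2 was the lowest of all 6, so that the groups overlapped although the mean with GIA was lower (log2 fold change -0.13, SE 0.08). With 1 library left out in turn the value ran from -0.21, without DMSO library 2, to -0.08, without DMSO library 3, and it was -0.09 without DMSO library 1. The DDIT3 model overlaps MARS1 and MBD6 on the opposite strand, by 982 and 1028 bases; the labels call the libraries strand-specific, but the use of strand in counting was not given in the sources used here.

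NUPR1, a small chromatin-associated stress factor downstream of ATF4, had 12.1, 12.0 and 11.8 FPKM with DMSO and 11.3, 11.1 and 11.6 with GIA. All GIA values lay below all DMSO values, by a small amount (log2 fold change -0.08, SE 0.04, interval -0.17 to 0.0022). CREBRF, which restrains the stress factor CREB3, was among the least abundant members, with 0.574, 0.583 and 0.551 FPKM with DMSO and 0.629, 0.799 and 0.666 with GIA. Here all GIA values lay above all DMSO values. Its log2 fold change of 0.29 (SE 0.12, interval 0.03 to 0.56) had an adjusted p of 0.875 by edgeR, and leaving out GIA library 2 gave 0.19. On a scale of log2 (FPKM + 0.5), which understates changes of low genes, it was 0.16. With 0.1 added in place of 0.5 it was 0.25, and the unadjusted p by limma was still 0.187. By edgeR the unadjusted p was 0.0345 with all libraries and 0.139 without GIA library 2.

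The remaining factors overlapped between groups. ATF5, which is controlled through upstream reading frames like ATF4, had 4.02, 4.14 and 4.34 FPKM with DMSO and 4.18, 2.89 and 3.97 with GIA, so that GIA library 2 stood below the other 5. Its log2 fold change was -0.18 with all libraries and -0.03 without GIA library 2. The ATF5 model overlaps NUP62, at 19.1 FPKM, by 1062 bases on the opposite strand. ATF3, which represses stress genes after their induction, had a log2 fold change of -0.11 (SE 0.08), the C/EBP partner CEBPG -0.07 (SE 0.04), and the AP-1 repressor JDP2 -0.09 (SE 0.09).

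**Figure D2:**
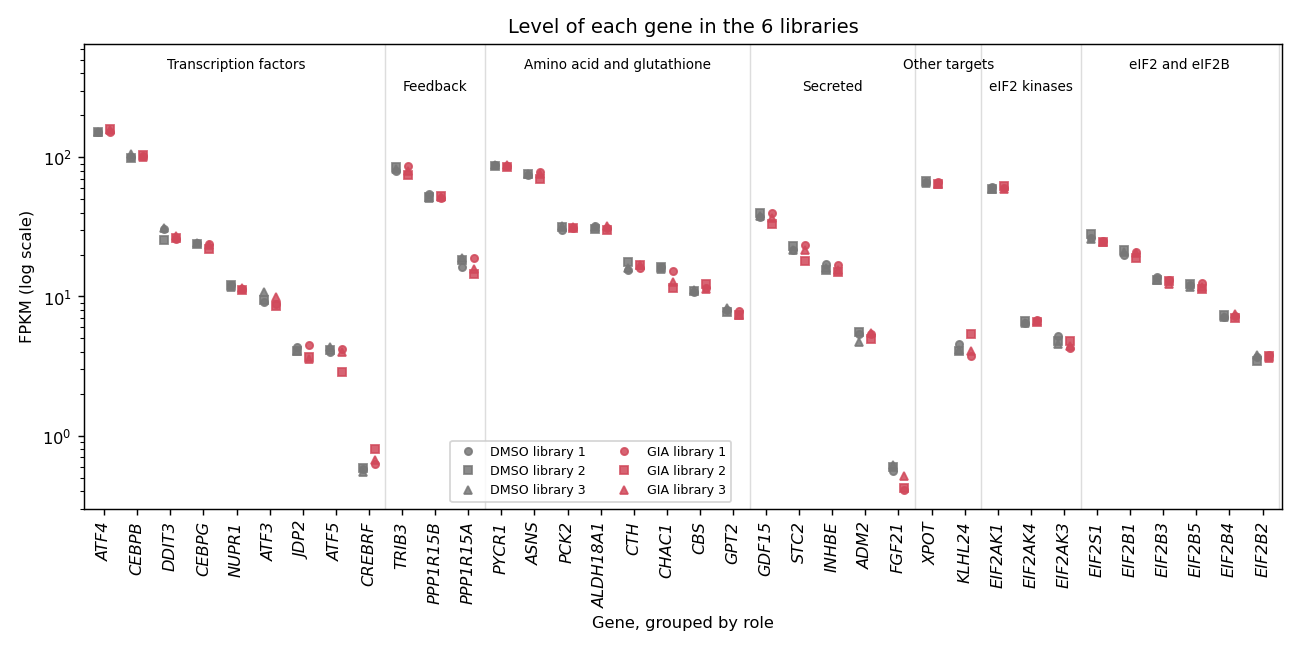
FPKM of each gene on a log axis in the 3 DMSO (grey) and 3 GIA (red) libraries, grouped by role and ordered by mean level. Levels run from 153.9 FPKM for ATF4 to 0.52 for FGF21, while the 6 libraries of a gene lie close together.

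ATF4 acts through composite sites, called C/EBP-ATF response elements, that join a C/EBP site to an ATF site and commonly read TGATGNAA. This motif (TTNCATCA on the other strand) was searched on both strands of the RefSeq promoter windows of build GRCh38.p14, each from 250 bases before to 50 bases after a start site. Windows were matched for 31 of the 36 genes; NUPR1, GPT2, PYCR1, INHBE and EIF2AK1 had none. A match was present for 7 of 23 ATF4-side genes (30.4%) and for 0 of 8 eIF2 kinases and subunits, beside 1217 of 27305 genes (4.46%) overall. A gene can have several windows. Counted per window, 7 of 37 on the ATF4 side (18.9%) had a match, beside 1270 of 35116 overall (3.62%). Among ATF4 targets outside the 36, 12 of 29 (41.4%) had a match. The palindromic cyclic AMP element TGACGTCA, which no member held together with TGATGNAA, was found in 1 member, PPP1R15A. That was 1 of 46 member windows (2.17%), beside 649 of 35116 windows overall (1.85%). The matches of the 6 genes of smallest p are shown because, among the members, matches lay on the ATF4 side. Each is given on its gene's strand, 5′ to 3′, up to the start site at most, with the match in capitals. A match is a description of the letters and not a bound site.
CHAC1: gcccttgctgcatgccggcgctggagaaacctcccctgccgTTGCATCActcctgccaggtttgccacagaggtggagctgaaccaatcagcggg
FGF21: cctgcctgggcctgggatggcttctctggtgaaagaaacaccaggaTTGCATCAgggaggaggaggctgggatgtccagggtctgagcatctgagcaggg
CEBPG: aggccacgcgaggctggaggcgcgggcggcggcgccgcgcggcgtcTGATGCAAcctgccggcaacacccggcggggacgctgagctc
ATF3: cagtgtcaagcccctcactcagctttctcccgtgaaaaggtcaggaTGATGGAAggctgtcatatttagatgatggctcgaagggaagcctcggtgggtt
JDP2: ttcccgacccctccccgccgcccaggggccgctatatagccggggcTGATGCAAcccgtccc
ASNS: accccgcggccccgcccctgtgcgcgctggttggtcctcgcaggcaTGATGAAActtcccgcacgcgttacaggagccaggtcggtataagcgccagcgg
The stretches lie at chr15:40953221-40953315, plus strand, for CHAC1; chr19:48755424-48755523, plus strand, for FGF21; chr19:33374025-33374112, plus strand, for CEBPG; chr1:212565170-212565269, plus strand, for ATF3; chr14:75427960-75428021, plus strand, for JDP2; and chr7:97872423-97872522, minus strand, for ASNS. The matches begin 209, 54, 42, 191, 16 and 68 bases before the RefSeq start, in that order. CHAC1 and FGF21 carry TTGCATCA, the other strand of the TGATGCAA found in CEBPG and JDP2, whereas ASNS has TGATGAAA and ATF3 TGATGGAA. The remaining match, TGATGCAA, was in PPP1R15B. The stretches of FGF21 and ATF3 end before the gene models of the deposited table begin, while those of CHAC1, CEBPG, JDP2 and ASNS overlap these models, which begin further upstream than the RefSeq start.

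Of the genes for amino acids and glutathione, CHAC1 stood furthest apart. It encodes an enzyme that degrades glutathione and is a well-known ATF4 target, with the TTGCATCA match in the promoter stretch given for it. CHAC1 (chromosome 15, 40952962 to 40956512, plus strand) had 16.2, 16.4 and 15.8 FPKM with DMSO and 15.3, 11.5 and 12.7 with GIA. The 3 GIA values all lay below the 3 DMSO values, with GIA library 1 close to them and GIA library 2 furthest below. The log2 fold change of CHAC1 was -0.29 (SE 0.10, interval -0.51 to -0.07), with an unadjusted p of 0.0152 and an adjusted p of 0.875 by edgeR. Leaving out GIA library 2 gave -0.20 and leaving out GIA library 1 gave -0.42. The smallest adjusted p of any member with a library left out was 0.469. At an unadjusted p under 0.05, CHAC1 was the only member present with all 6 libraries and in each of the 15 alternatives tried.

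Other enzymes of amino acid supply varied less. PYCR1, which completes proline synthesis, had 87.7, 87.1 and 87.8 FPKM with DMSO and 87.1, 84.7 and 88.6 with GIA. Its highest library was 1.05-fold above its lowest, a range as narrow as that of ATF4. ASNS, asparagine synthetase, had 75.0 to 76.2 FPKM with DMSO and 77.8, 69.4 and 75.4 with GIA, again with GIA library 2 lowest (log2 fold change -0.03, SE 0.05). The ASNS model overlaps AC079781, at 2.19 FPKM, by 20855 bases on the same strand. ALDH18A1, an earlier enzyme of proline synthesis, had a log2 fold change of -0.02 (SE 0.04) and PCK2, the mitochondrial enzyme that makes phosphoenolpyruvate, -0.0016 (SE 0.04). GPT2, a mitochondrial alanine aminotransferase, had 7.96, 7.75 and 8.32 FPKM with DMSO and 7.82, 7.30 and 7.39 with GIA, and the groups overlapped (log2 fold change -0.10, SE 0.05).

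The transsulfuration enzymes turn homocysteine into cysteine, in the order CBS and then CTH. CTH had a log2 fold change of 0.01 (SE 0.06). CBS had 10.8, 10.9 and 11.2 FPKM with DMSO and 11.4, 12.3 and 11.2 with GIA. All GIA values lay above all DMSO values, though DMSO library 3 and GIA library 3 were nearly equal (log2 fold change 0.09, SE 0.04, interval -0.01 to 0.18). The table also holds CBSL, a near-identical copy on chromosome 21, with 10.79, 11.01 and 12.16 FPKM with DMSO and 10.08, 8.01 and 10.6 with GIA. CBSL was thus lower in the GIA libraries, with no overlap, and lowest in GIA library 2, where CBS was highest. The sum of CBS and CBSL was 22.3 ± 0.931 FPKM (SD, n = 3) in the controls and 21.2 ± 0.788 (SD, n = 3) under GIA, and the groups overlapped. The share of reads given to each copy is an estimate, so the value for CBS alone is uncertain.

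**Figure D3:**
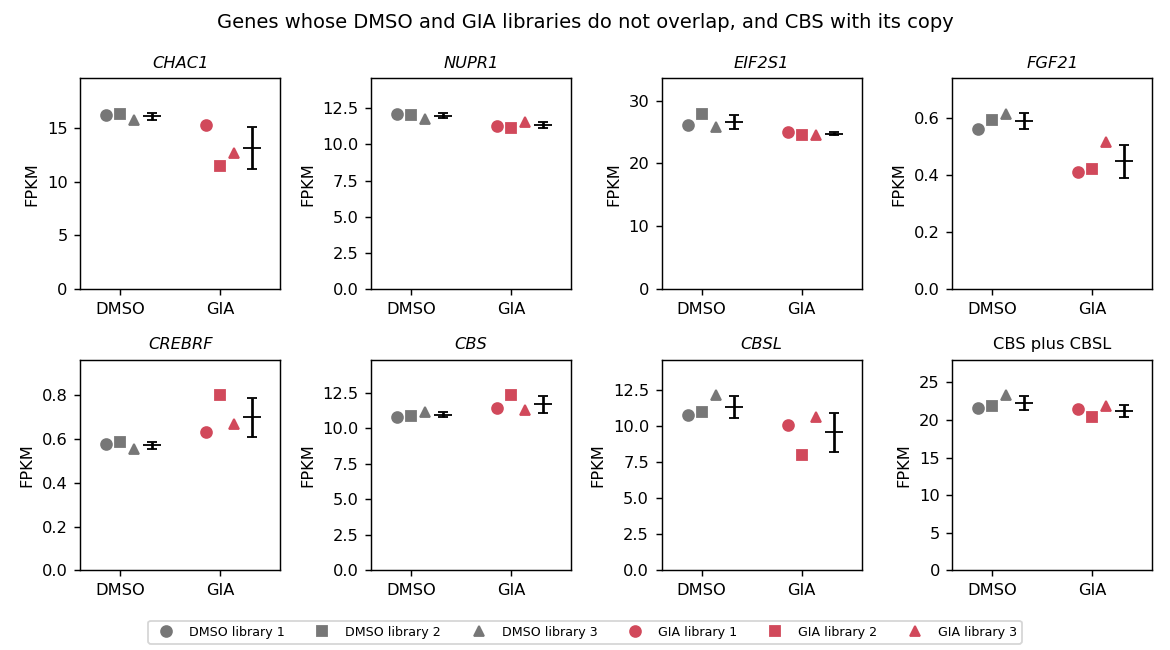
FPKM in each library (symbols) with the mean and SD of each group (black), for the 6 genes whose DMSO and GIA libraries do not overlap and for CBSL and the sum of CBS and CBSL, on axes that start at 0. CBS and CBSL lie apart in opposite directions, and their sum, 22.3 with DMSO and 21.2 with GIA, overlaps.

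The 3 genes grouped as feedback, of which PPP1R15B is constitutive, had small log2 fold changes. The sign depended on single libraries for TRIB3 and PPP1R15B. TRIB3, a pseudokinase that binds ATF4 and dampens it, had 79.3, 84.5 and 82.6 FPKM with DMSO and 85.8, 74.2 and 79.8 with GIA. Both the highest and the lowest value were in the GIA group. Its log2 fold change of -0.04 (SE 0.05) turned to 0.01 when GIA library 2 was left out, and leaving out GIA library 1 gave -0.10. PPP1R15A, the inducible GADD34 subunit that directs a phosphatase to eIF2, had 16.3, 18.2 and 18.9 FPKM with DMSO and 18.9, 14.6 and 15.8 with GIA. GIA library 1 matched the highest DMSO library while the other GIA libraries lay below all of them, and the log2 fold change was -0.12 (SE 0.09), or -0.23 without GIA library 1 and -0.04 without GIA library 2. The constitutive counterpart PPP1R15B had 54.3, 51.5 and 51.1 FPKM with DMSO and 51.0, 53.0 and 52.0 with GIA (log2 fold change -0.01, SE 0.03, and 0.02 without DMSO library 1). Its model overlaps AL606489, at 3.47 FPKM, by 8437 bases on the opposite strand. Per length, PPP1R15B was 2.70-fold to 3.63-fold above PPP1R15A in every library.

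Secreted products of the response ranged widely in level. GDF15, a stress hormone that curbs appetite, had 37.5, 40.04 and 38.0 FPKM with DMSO and 39.6, 33.1 and 36.6 with GIA (log2 fold change -0.08, SE 0.07). STC2, a stanniocalcin induced by ER stress and hypoxia, had 21.5, 23.2 and 21.7 FPKM with DMSO and 23.5, 17.9 and 21.6 with GIA (log2 fold change -0.08, SE 0.09). In both genes GIA library 2 was the lowest of the 6 and the groups overlapped; without it the values were -0.01 for GDF15 and 0.03 for STC2. FGF21, a metabolic hormone, was barely expressed, with 0.563, 0.594 and 0.617 FPKM with DMSO and 0.411, 0.421 and 0.516 with GIA. These values rest on 47, 50 and 59 estimated counts with DMSO and 42, 43 and 51 with GIA. The GIA values lay below the DMSO values, and the log2 fold change of -0.38 (SE 0.24) has an interval, -0.91 to 0.15, that reaches 1.88-fold and is the widest of the 36. INHBE, an activin subunit, had -0.05 (SE 0.06) and the peptide hormone ADM2 0.01 (SE 0.08).

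Of the other targets, XPOT, which exports tRNA from the nucleus, had 65.9, 67.4 and 65.6 FPKM with DMSO and 66.9, 63.8 and 64.6 with GIA, and the groups overlapped (log2 fold change -0.03, SE 0.03). KLHL24, an adaptor of a ubiquitin ligase, had 4.59, 4.09 and 4.11 FPKM with DMSO and 3.77, 5.34 and 4.04 with GIA. GIA library 2 was the highest and GIA library 1 the lowest of the 6, so its log2 fold change of 0.04 (SE 0.12) became -0.13 without GIA library 2.

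The eIF2 kinases differed far more from each other than between groups. EIF2AK1, the heme-regulated kinase HRI that also relays mitochondrial stress, had 61.0, 59.5 and 58.7 FPKM with DMSO and 60.0, 62.2 and 59.0 with GIA (log2 fold change 0.01, SE 0.03). EIF2AK3, the kinase PERK of the endoplasmic reticulum, had 5.18, 4.81 and 4.57 FPKM with DMSO and 4.24, 4.76 and 4.42 with GIA, with overlapping groups (log2 fold change -0.12, SE 0.07, interval -0.28 to 0.04). EIF2AK4, the amino acid sensor GCN2, had 6.47, 6.69 and 6.46 FPKM with DMSO and 6.82, 6.54 and 6.66 with GIA (log2 fold change 0.03, SE 0.04). Per length, EIF2AK1 mRNA was 11.8-fold to 14.2-fold above EIF2AK3 and 8.79-fold to 9.52-fold above EIF2AK4 in every library. The EIF2AK1 model overlaps AIMP2, at 44.55 FPKM, by 1588 bases on the opposite strand.

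EIF2S1 encodes the alpha subunit of eIF2, the substrate of these kinases. It had 26.1, 28.0 and 25.8 FPKM with DMSO and 25.1, 24.6 and 24.6 with GIA, so that all GIA values lay below all DMSO values. The log2 fold change of EIF2S1 was -0.11 (SE 0.04, interval -0.20 to -0.01), with an unadjusted p of 0.0315 and an adjusted p of 0.875 by edgeR. It kept its direction with each library left out in turn, at -0.13 to -0.07, and was -0.10 without GIA library 2. The smallest change, -0.07, came without DMSO library 2, the highest of the 6, with an unadjusted p of 0.149 by edgeR. That p was 0.0713 without GIA library 3. EIF2B1, the alpha subunit of the exchange factor eIF2B, had 19.9, 21.6 and 20.9 FPKM with DMSO and 21.0, 18.9 and 20.7 with GIA (log2 fold change -0.05, SE 0.05). EIF2B3 had 13.8, 13.05 and 13.2 FPKM with DMSO and 13.2, 12.9 and 12.3 with GIA (log2 fold change -0.06, SE 0.05). Both overlapped between groups, as did EIF2B2, EIF2B4 and EIF2B5, whose log2 fold changes were 0.02, 0.0015 and -0.03. The order of levels, from EIF2S1 through EIF2B1, EIF2B3, EIF2B5 and EIF2B4 to EIF2B2, was the same in all 6 libraries. EIF2B1 was 5.09-fold to 6.26-fold above EIF2B2 per length. The other subunits of eIF2, outside the 36 genes, were more abundant than EIF2S1, by 2.80-fold to 3.20-fold for EIF2S2 and 4.18-fold to 4.69-fold for EIF2S3.

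In FPKM, all GIA libraries lay below all DMSO libraries for 4 of the 36 genes (CHAC1, NUPR1, FGF21 and EIF2S1), or 11.1%, beside 5.6% of all genes tested. FGF21 passed the filter on low values through its DMSO libraries, so its place in this count is tied to the filter, and the count is 3 without it. The reverse held for 2 genes (CREBRF and CBS), or 5.56%, beside 5.63% of all genes. Over the ATF4 side the log2 fold change was negative for 20 of 27 genes with a median of -0.04. FGF21 is among the 20, and its sign there is likewise tied to the filter. Over the eIF2 kinases and subunits the log2 fold change was negative for 5 of 9 with a median of -0.03. Of all genes tested, 49.8% were negative and their median was 0.0004.

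GIA library 2 was the lowest library for many of the 36 genes. The lowest of the 6 FPKM values was in that library for 19 of 36 members (52.8%), beside 23.9% of all genes tested. The highest was there for 5 members (13.9%), beside 29.6%. These shares were not matched for level, and the median was 16.2 FPKM over the members and 5.22 over all genes tested. The median deviation of the 27 ATF4-side genes from their own 6-library means on the log2 CPM scale (counts scaled by library size) was -0.09 in GIA library 2, -0.0037 in GIA library 3 and 0.01 to 0.02 in each of the other 4. Secreted products (-0.19) and feedback genes (-0.14) lay lowest there, while ATF4 mRNA was at its highest in the same library. With GIA library 2 left out, the median log2 fold change was -0.01 on the ATF4 side and 0.0013 over the eIF2 genes, 10 of 36 members changed sign and 15 of 27 ATF4-side genes were negative. Without GIA library 1 the medians were -0.08 and -0.07.

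Other measures set GIA library 2 apart as well. The summed level of 7 colon epithelial markers was 381 FPKM there, against 434 to 440.5 in the DMSO libraries and up to 451.5 in the GIA group. Nearly all of that sum was KRT18 and KRT8, at 219 and 134 FPKM in GIA library 2, while KRT19 (27.7 FPKM) and EPCAM (0.294 FPKM) lay within their DMSO ranges there. The summed level of 5 fibroblast markers was 222 FPKM there, against 178 to 195 with DMSO and from 175 in the GIA group. The 3 leukocyte markers with a row summed to 16.97 to 24.7 FPKM in all libraries, nearly all of it CD68, with PTPRC listed at 0 in 4 libraries, and the endothelial markers to at most 0.123. The library had 13976 genes with at least 0.5 FPKM, where the others had 13676 to 13783. The part of these differences in the result was not tested.

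**Figure D4:**
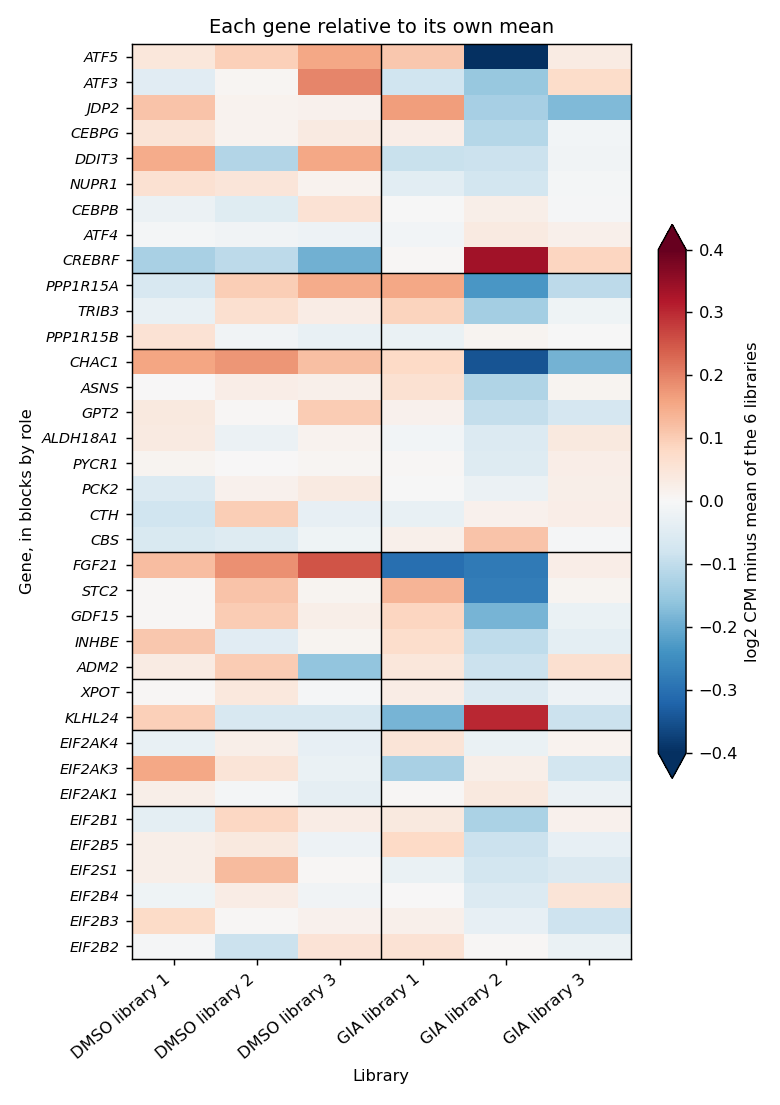
Each gene's log2 CPM in each library minus its mean over the 6 libraries, in blocks by role; the colour scale ends at 0.4 either way. Blue (lower) cells gather in the column of GIA library 2, with CREBRF and KLHL24 among the red (higher) ones.

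Of a list of 37 other ATF4 targets, 36 were tested (ALDH1L2, at 0.242 FPKM, was not tested). By edgeR 0 were higher and 0 lower, and 0 had an unadjusted p under 0.05. The median log2 fold change was -0.01, with 21 of 36 negative. The smallest p belonged to MTHFD2, a mitochondrial folate enzyme, at -0.07 (SE 0.04), and to the tRNA synthetases NARS1 at -0.06 (SE 0.03) and TARS1 at -0.07 (SE 0.04). In this list too the lowest library was GIA library 2 for 23 of 36 genes (63.9%). A list of 13 further genes of eIF2 control had 0 higher and 0 lower, with a median of -0.01. EIF2AK2, the remaining eIF2 kinase PKR that senses double-stranded RNA, had -0.07 (SE 0.05), the translation factor EIF2A 0.05 (SE 0.03) and DNAJC3, a chaperone that inhibits eIF2 kinases, -0.08 (SE 0.05). Here GIA library 2 was lowest for 3 of 13 genes (23.1%), near the share over all genes. Of the 9 eIF2 kinases and subunits within the 36 genes, 4 (44.4%) were lowest in that library.

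**Figure D5:**
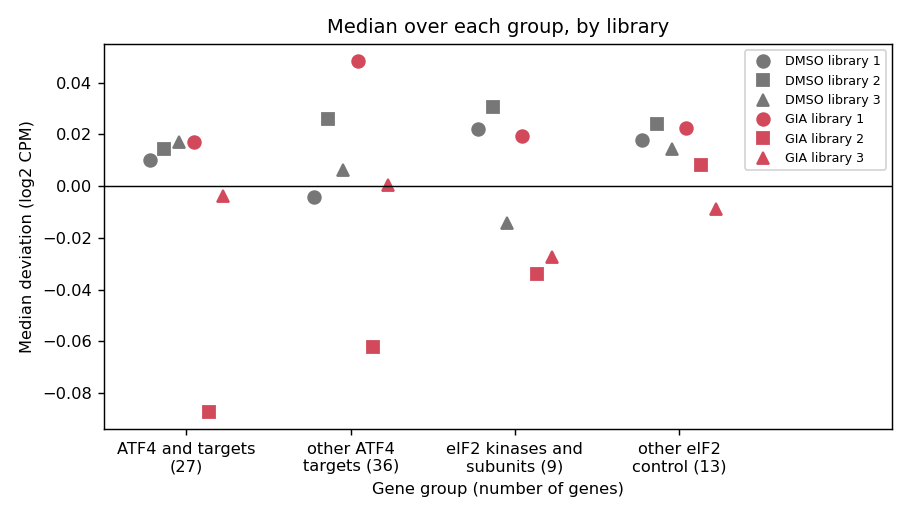
Median over the genes of each group of log2 CPM minus the gene's 6-library mean, 1 symbol per library. GIA library 2 lies at -0.09 for ATF4 and its targets and at -0.06 for the other ATF4 targets, below every other library. It is also lowest for the 9 eIF2 kinases and subunits, at -0.034 beside -0.027 in GIA library 3. For the other eIF2 control genes it lies at 0.01.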

How the data were processed

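RNA-seq libraries of cells labelled HCT116 were compared, 3 with GIA and 3 with DMSO. Per the labels' protocols, total RNA was made into strand-specific libraries (SMARTER mRNA-Seq kit). The submitters' processing notes name FastQC 0.10.1, cutadapt, HISAT2 2.2.1, StringTie 2.1.6, DESeq2 1.22.2 and GRCh38, without roles (annotation release: not given in the sources used here). In a single table, the authors deposited an estimated count and an FPKM per gene and library, per the file headers. The value 4 was overrepresented (6798 counts of 4, 4183 of 3 and 2499 of 5), and what a single fragment is worth in counts was not given. Gene positions are those of the table; all 36 members overlap their GENCODE 29 model on the same strand, and 10 match it exactly.

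The members, lists and tests were chosen with earlier results of these data known. Counts, already whole, were tested across all genes with a mean of at least 0.5 FPKM by the quasi-likelihood test of edgeR 4.0.16 (R 4.3.3, TMM scaling, two-sided, no covariate), with a Benjamini-Hochberg adjusted p under 0.05 as the threshold. Each SE was the size of the log2 fold change divided by the square root of F. All members are named; those with the values of each library are ATF4 and, in each role, the 3 of smallest p and the most abundant, beside ATF5, ASNS and CBSL, which were added after their values were seen. Of each list of other pathway genes the 3 of smallest p are named. Promoters were limited to 6 in order of p. The test was checked on simulated counts. Alternatives were DESeq2 1.42.0, limma 3.58.1 on log2 (FPKM + 0.1, 0.5 or 1), library totals, other filters, counts divided by 4, a replicate block, and leaving out each library.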

Additional observations from a re-analysis of the deposited data

How the results depend on the processing

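No member was called with any of the 15 alternatives. The number of genes called in the whole table, 0 with all libraries, was 0 to 5 with a library left out (2 without DMSO library 2, 2 without DMSO library 3, 1 without GIA library 1, 5 without GIA library 3). With the replicate number as a replicate block it was 3, of which 0 were members. Whether the numbers pair the libraries could not be settled with 3 libraries per group. Deviations of same-numbered libraries from their group means correlated at 0.05, 0.03 and 0.10 across genes. Those of different-numbered libraries correlated at -0.086 to 0.0349. DMSO libraries 1 and 3 correlated best with the GIA library of their own number. DMSO library 2 correlated slightly better with GIA library 1 (0.0349) than with GIA library 2 (0.0334). With a library left out, the median log2 fold change ran from -0.0821 (without GIA library 1) to -0.0093 (without GIA library 2) on the ATF4 side and from -0.0727 to 0.0013 over the eIF2 genes; the cause was not tested. Of the members' single-gene values under the alternatives, 518 stayed within 1 SE of the value with all libraries and 15 did not. CREBRF and FGF21 had smaller fold changes by limma with a pseudocount of 1 (0.11 and -0.14). With a mean of at least 5 FPKM, 29 members were tested. FGF21, with 42 to 59 estimated counts, is the member that depth limits most.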
